A study of Mus musculus with 12 samples.

Results

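The genes described are 9 members of the system that cleaves extracellular matrix in the mouse small intestine. They are 6 matrix metalloproteinases (Mmp2, Mmp9, Mmp10, Mmp13, Mmp14 and Mmp15) and 3 tissue inhibitors of metalloproteinases (Timp1, Timp2 and Timp3). They were chosen by gene name, 9 of the 54532 genes in the deposited tables, and no member's name occurred more than once. The names were proposed with results of these libraries known, so the tests below describe these libraries and are not independent support. RNA of whole small intestine from C57BL/6J mice had been sequenced in 12 libraries, 3 in each of 4 groups. CKO NEC and flox NEC tissue came from mice in which necrotizing enterocolitis (NEC), a disease of newborns in which inflamed bowel dies, had been induced. CKO control and flox control tissue came from mice without it. CKO mice lack Piezo1, a mechanically gated cation channel, in intestinal epithelial cells only, and flox mice carry the floxed gene as their control. The sources used here give neither the driver of the deletion nor the way NEC was induced nor the animals' ages. No label ties a library to a mouse of its own, so a p-value measures the spread between libraries, which may be technical.

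Matrix metalloproteinases are zinc-dependent enzymes, most of them made as inactive precursors, that cut collagens, laminins, fibronectin and other proteins outside the cell. Mmp2 and Mmp9 are the gelatinases, Mmp13 is a collagenase, Mmp10 (stromelysin-2) cuts a broad range of matrix proteins, and Mmp14 and Mmp15 are anchored in the plasma membrane. Mmp14 activates the Mmp2 precursor at the cell surface in a complex that needs Timp2, while Timp2 in excess blocks it. Timp1 is a secreted inhibitor that is induced in many inflamed tissues, and Timp3 binds to the matrix and also inhibits several ADAM and ADAMTS proteases. In the intestine most of these genes are known mainly from stromal cells, macrophages and injured epithelium. Transcript levels say nothing of how much of an enzyme is active.

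The members lie on 7 chromosomes, in positions on GRCm38 that the tables share with GENCODE M21 for all 9 of them. Mmp10 (9, 7502352 to 7510240, plus strand) and Mmp13 (9, 7272514 to 7283331, plus strand) belong to a cluster of 10 metalloproteinase genes in the tables. Mmp2 (8, 92827291 to 92853420, plus) and Mmp15 (8, 95352268 to 95375080, plus) share a chromosome. Mmp9 lies at 2, 164940780 to 164955850 (plus), and Mmp14 at 14, 54431612 to 54445364 (plus). Timp2 lies at 11, 118301069 to 118355740, on the minus strand, and spans Cep295nl, whose FPKM was at most 0.294 in any library. Timp1 (X, 20870166 to 20874735, plus) lies inside Syn1, and Timp3 (10, 86300372 to 86349506, plus) inside Syn3, each on the opposite strand from its host gene. Each gene of a pair had its own values. The sources used here do not say whether reads were counted by strand, so reads from any exon bases that a pair shares could be misassigned. Whether the exons of a pair overlap was not examined. Syn3 stood between 0.134 and 0.315 FPKM over the 12 libraries. Syn1 stood between 0.336 and 2.58 FPKM, close to the range of Timp1 itself.

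The 250 bases before the RefSeq start (GRCm38.p6) were held for 7 of the 9 members, and they were of 2 kinds. Searched on both strands, Mmp10 and Mmp13 each held 1 AP-1 motif (TGAGTCA, or TGACTCA on the other strand) and 1 TATA box (TATAAA, or TTTATA). The other members searched, Timp1, Timp2, Timp3, Mmp14 and Mmp15, held neither, and each held at least 1 GC box (GGGCGG, or CCGCCC). Over 32851 mouse promoters of the same length, 4.46% held the AP-1 motif, 12.4% the TATA box and 32.7% the GC box. The AP-1 match began 63 bases before the start in Mmp10 and 35 before it in Mmp13, and the TATA box 29 and 16 before it. The share of G and C was 37.2% for Mmp10 and 40.4% for Mmp13, against 54.4% for Timp1, 55.2% for Mmp14, 63.6% for Mmp15, 65.6% for Timp3 and 68.0% for Timp2, with a median of 52.4% over all promoters. A match is a run of letters, not a site shown to be bound. Mmp10 and Mmp13 are printed for this shared layout, and Timp3 because it is the member called in the interaction described below. Capitals mark the AP-1 and TATA matches, each sequence runs 5′ to 3′ on the plus strand, and Timp3 stops at 210 bases, where its gene begins in the tables. Its GC box, 15 bases before the RefSeq start, lies past that point. By the deposited coordinates, all 250 bases searched for Timp2 lie inside the gene, and 222 of those for Mmp15 lie before the gene.
Mmp10 promoter, chr9:7502092-7502341: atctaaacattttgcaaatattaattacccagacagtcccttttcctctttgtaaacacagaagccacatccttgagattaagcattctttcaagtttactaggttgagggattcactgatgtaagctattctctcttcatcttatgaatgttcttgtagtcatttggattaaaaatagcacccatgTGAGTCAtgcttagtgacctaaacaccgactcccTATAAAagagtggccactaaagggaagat
Mmp13 promoter, chr9:7272264-7272513: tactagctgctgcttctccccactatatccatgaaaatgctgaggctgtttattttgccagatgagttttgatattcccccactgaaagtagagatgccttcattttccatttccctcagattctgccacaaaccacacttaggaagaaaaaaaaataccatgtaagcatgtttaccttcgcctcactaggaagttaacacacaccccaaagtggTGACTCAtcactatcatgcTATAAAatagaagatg
Timp3 promoter, chr10:86300162-86300371: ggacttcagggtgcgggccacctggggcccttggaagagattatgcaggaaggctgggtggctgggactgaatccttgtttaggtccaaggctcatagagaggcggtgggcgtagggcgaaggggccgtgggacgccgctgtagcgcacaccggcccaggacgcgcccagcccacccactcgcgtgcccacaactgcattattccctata

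The values are FPKM (read counts scaled by gene length and library size) as deposited, in 1 table for NEC and 1 for control. Whole reads could be recovered from them, 13057724 to 16821130 per library. The epithelial markers Epcam, Vil1 and Krt8 were at 274 FPKM or more in every library of this tissue. The other epithelial markers listed ranged widely, from 0.501 FPKM for Fabp1 in a flox control library to 15353 for Apoa1 in a CKO control library. Piezo1 stood at 5.38, 5.58 and 3.23 FPKM in CKO NEC, against 7.38, 7.23 and 6.76 in flox NEC. Uninjured tissue had 1.71, 1.03 and 0.926 FPKM of Piezo1 in CKO and 1.38, 1.44 and 1.09 in flox, so there it did not separate the genotypes. Mitochondrially encoded genes took 3.47 to 4.43% of reads in CKO NEC, 3.80 to 4.52% in flox NEC, 5.11 to 6.76% in CKO control and 11.1 to 14.3% in flox control.

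By FPKM, a level per gene length, Mmp10, Timp1 and Mmp13 were the lowest members in each of the 4 groups. Mmp2, Timp2, Mmp15 and Mmp14 were the 4 highest in CKO NEC, flox NEC and flox control, with Timp3 and Mmp9 after them, and in CKO control Timp3 joined the highest. In CKO NEC the order by mean FPKM was Mmp2 (32.1 ± 3.28), Timp2 (31.2 ± 8.78), Mmp15 (23.9 ± 8.57), Mmp14 (15.7 ± 1.58), Timp3 (11.2 ± 1.27) and Mmp9 (7.79 ± 1.75, SD, n = 3). Libraries of the first 4 of these overlapped from each gene to the next, and those of Mmp14, Timp3 and Mmp9 did not. In flox NEC the order began with Timp2 (41.3 ± 9.58) and Mmp2 (37.9 ± 4.94), which overlapped, followed by Mmp15 (20.8 ± 1.14), Mmp14 (17.1 ± 1.55), Timp3 (15.2 ± 2.30) and Mmp9 (11.6 ± 0.891), of which only Mmp14 and Timp3 overlapped.

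The uninjured groups had another order at the top. In CKO control Mmp15 led at 28.6 ± 7.10 FPKM, apart from all others, followed by Timp3 (11.2 ± 1.15), Timp2 (10.8 ± 4.66), Mmp2 (10.7 ± 3.82), Mmp14 (7.42 ± 1.58) and Mmp9 (5.18 ± 2.35), each overlapping its neighbour. In flox control Mmp15 (18.7 ± 3.97) and Timp2 (17.9 ± 2.95) overlapped, Mmp2 (13.4 ± 1.21) and Mmp14 (11.95 ± 3.29) overlapped, and so did Mmp9 (4.54 ± 2.49) and Timp3 (4.44 ± 2.14). Timp3 thus ranked second in CKO control and sixth in flox control. The 3 lowest members rested on few reads per library, 22 to 138 for Mmp10, 5 to 36 for Timp1 and 10 to 46 for Mmp13, against 279 or more for every other member but Mmp9, which had 87 to 605.

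**Figure D1:**
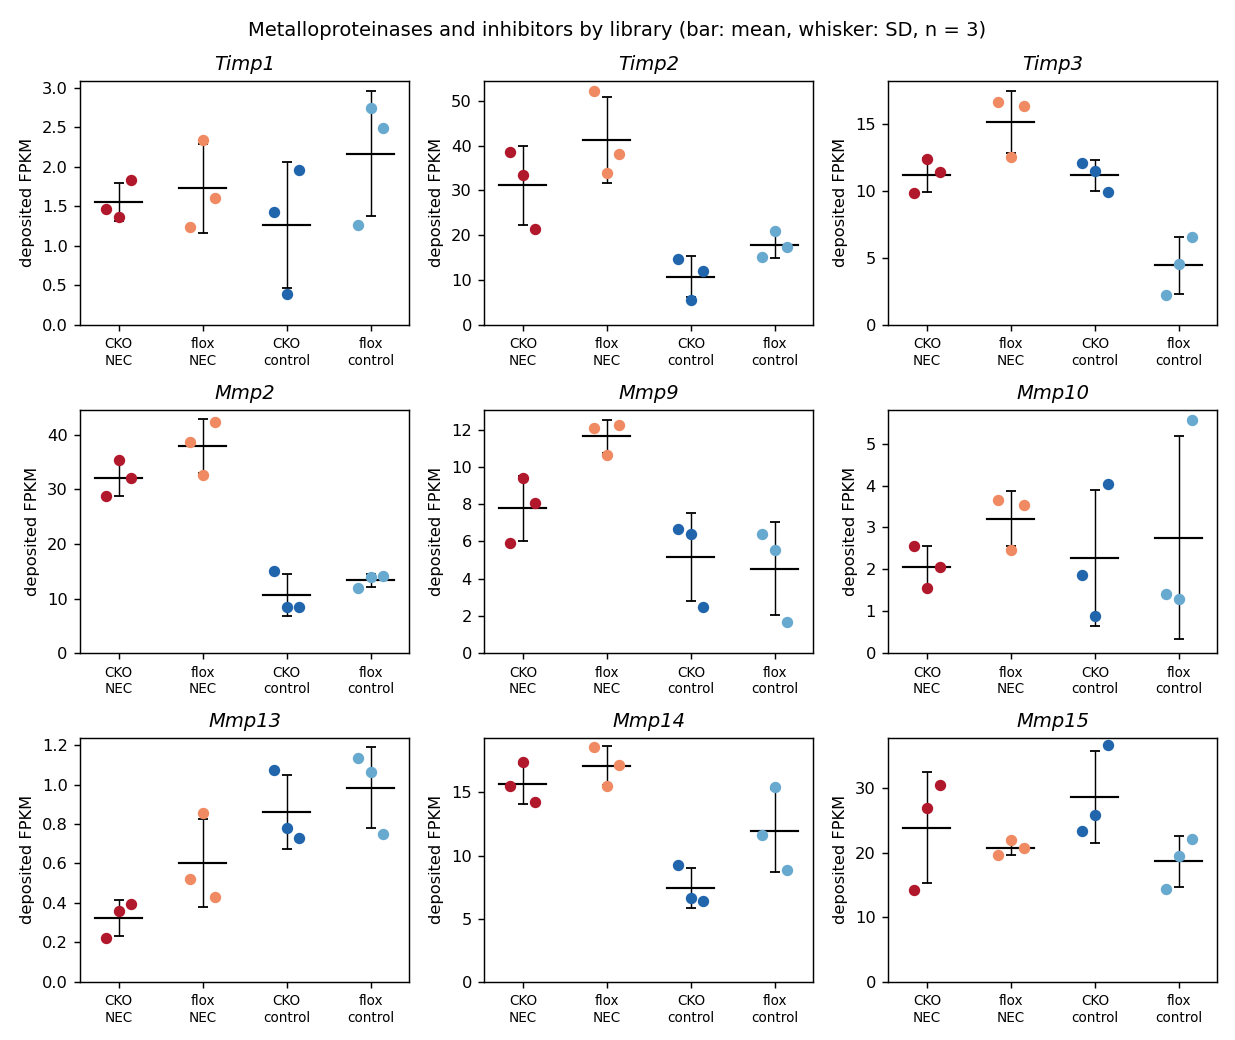
Deposited FPKM of the 9 members (vertical axes, linear, each from 0) in the 4 groups (horizontal), with 1 point per library, a bar at the mean and whiskers of 1 SD (n = 3). Mmp2 libraries lie between 28.7 and 42.4 in NEC, all above the 8.50 to 15.1 of control, and Timp3 is lowest in flox control, at 2.26 to 6.53.

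Mmp2, Timp2, Mmp14, Mmp9 and Timp3 carried the differences between NEC and control tissue, all of them toward higher levels in NEC, and Mmp13 was the only member called lower. Mmp2 and Timp2 rose in both genotypes. Mmp14 passed the test in CKO tissue and Timp3 and Mmp9 in flox tissue, and of these only Timp3 was called when the difference between the genotypes was itself tested. The comparison used levels rescaled over all 12 libraries, since each table had its own scaling, with the deposited values of NEC lying 0.15 higher on average than those of control relative to the shared scale (log2). Condition and table are the same division of the libraries, so an effect of NEC and one of separate sample handling cannot be told apart. In whole tissue, fewer cells of a type and less RNA per cell cannot be told apart either.

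Mmp2, gelatinase A, had 28.7, 35.3 and 32.1 FPKM in CKO NEC, against 15.1, 8.54 and 8.50 in CKO control. In flox tissue it had 38.7, 32.6 and 42.4 FPKM in NEC, against 11.99, 14.0 and 14.1 in control. Every NEC library was above every control library. On the scale of log2(rescaled FPKM + 1) it rose by 1.40 ± 0.19 (SE) in CKO (limma, adjusted p = 0.000331) and by 1.28 ± 0.19 in flox (adjusted p = 0.000258).

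Timp2, which both inhibits Mmp2 and helps Mmp14 to activate it, moved with Mmp2. It had 38.6, 33.4 and 21.5 FPKM in CKO NEC, against 14.7, 5.61 and 12.1 in CKO control, with no overlap. It had 52.1, 33.8 and 38.1 FPKM in flox NEC, against 15.2, 21.02 and 17.4 in flox control, again with no overlap. The rise was 1.36 ± 0.31 in CKO (limma, adjusted p = 0.00478) and 1.00 ± 0.31 in flox (adjusted p = 0.0173). The flox rise missed the threshold without flox NEC library 1 (adjusted p = 0.0699) or without flox control library 1 (0.0602). The ratio of Mmp2 to Timp2 FPKM stayed within 0.745 to 1.497 in CKO NEC, 0.742 to 1.11 in flox NEC, 0.703 to 1.52 in CKO control and 0.668 to 0.810 in flox control, and the ranges overlap.

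Mmp14, the membrane-type enzyme that activates Mmp2, had 15.5, 17.4 and 14.2 FPKM in CKO NEC, against 9.24, 6.61 and 6.41 in CKO control. In flox tissue it had 18.6, 15.5 and 17.2 FPKM in NEC, against 11.6, 15.4 and 8.85 in control. The flox groups nearly met in deposited values and overlapped after rescaling, while the CKO groups lay apart. It rose by 0.87 ± 0.18 in CKO (limma, adjusted p = 0.00328), and in flox the difference was 0.36 ± 0.18 (adjusted p = 0.113). On deposited values the flox difference passed (0.51, adjusted p = 0.0340), and it passed also without flox control library 2 (0.55, adjusted p = 0.0209).

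Mmp9, gelatinase B, is known for its release by neutrophils and macrophages. It had 5.92, 9.38 and 8.06 FPKM in CKO NEC, against 6.64, 6.43 and 2.46 in CKO control. It had 12.1, 10.6 and 12.2 FPKM in flox NEC, against 6.38, 5.52 and 1.70 in flox control. The CKO groups overlapped and the flox groups did not. The difference in CKO was 0.45 ± 0.38 (limma, adjusted p = 0.356), and it rose by 1.18 ± 0.38 in flox (adjusted p = 0.0210). The flox rise missed the threshold when any of 3 libraries was left out, flox NEC 1 (adjusted p = 0.0547), flox NEC 3 (0.0560) or flox control 3 (0.72, adjusted p = 0.0700), and with no filter on low values (0.0527). Neutrophil markers were low throughout. The 11 listed summed to 1.47 to 5.91 FPKM in CKO NEC, 3.98 to 5.33 in flox NEC, 7.56 to 10.9 in CKO control and 6.26 to 8.42 in flox control. Mpo, the neutrophil peroxidase, was at 0 in all CKO NEC, CKO control and flox control libraries, and Ly6g was at 0 in all flox NEC, CKO control and flox control libraries. Retnlg, a gene of mouse neutrophils, averaged 0.421 ± 0.417 FPKM in CKO NEC and 1.64 ± 0.459 in flox NEC, and was listed at 0 in the CKO control and flox control libraries. S100a9 averaged 0.374 ± 0.133 FPKM in CKO NEC and 0.771 ± 0.330 in flox NEC, against 0.310 ± 0.537 in CKO control and 0.213 ± 0.262 in flox control. Of the 3 neutrophil markers tested, Ltf was called lower in CKO, and in flox Retnlg was called higher and Ltf and Camp lower (limma). The 10 macrophage and monocyte markers summed to 47.5 to 64.5 FPKM in CKO NEC and 60.4 to 71.2 in flox NEC, against 107.8 to 128.2 in CKO control and 115.2 to 133.3 in flox control. Csf1r made up much of that fall. It averaged 19.6 FPKM in CKO NEC and 22.8 in flox NEC, against 67.7 in CKO control and 68.2 in flox control. Of the 8 markers tested, 3 stood higher in NEC and 5 lower, in CKO and in flox alike.

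Mmp13, collagenase-3, stood lower in NEC. It had 0.222, 0.358 and 0.396 FPKM in CKO NEC, against 1.07, 0.778 and 0.730 in CKO control. Flox tissue had 0.520, 0.855 and 0.428 FPKM in NEC, against 1.14, 1.06 and 0.752 in control. The CKO groups did not overlap, and the flox groups did. It fell by 0.53 ± 0.16 on the log2 scale in CKO (limma, adjusted p = 0.0208), and the flox difference was -0.37 ± 0.16 (adjusted p = 0.0682). With at most 46 reads in a library these are coarse values. Leaving out library 1 of CKO NEC took the CKO fall below the threshold (adjusted p = 0.0679), while the flox difference passed it in the limma-voom test on reads (-0.89, adjusted p = 0.0471).

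Of the 9 members tested, 3 were called higher and 1 lower in CKO tissue, beside 20.1% of all 14678 genes tested called higher and 22.9% called lower. In flox tissue 4 were called higher and 0 lower, beside 27.1% and 26.4% of all genes. Of all genes, 43.0% were called in CKO and 53.5% in flox, so the number of members called is near that background in both. The median difference over the members was 0.16 in CKO and 0.36 in flox, beside -0.013 and 0.00014 over all genes tested. In CKO tissue 3 members lay with every NEC library above every control library, against 24.5% of all genes, and 1 with every NEC library below, against 27.2%. In flox tissue 4 lay above, against 32.1%, and 0 below, against 30.8%. Timp1, Mmp10 and Mmp15 did not pass in either genotype (limma, adjusted p = 0.210 to 0.963), with differences of 0.16, -0.087 and -0.43 for CKO tissue, and -0.30, 0.22 and 0.017 for flox tissue.

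**Figure D2:**
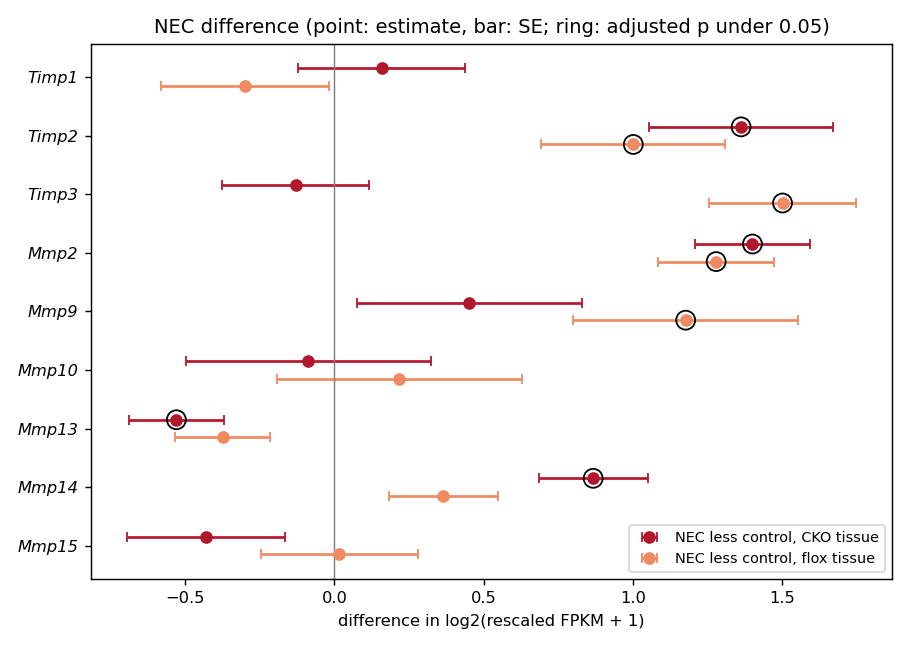
Difference NEC less control in log2(rescaled FPKM + 1) (horizontal axis) for the 9 members (rows), in CKO and flox tissue, with the estimate as a point, 1 SE as a bar and a ring where the limma adjusted p was under 0.05. Mmp2 and Timp2 are ringed in both genotypes, and Timp3 lies at -0.13 in CKO tissue and at 1.501 in flox tissue.

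Markers of the cell types in the tissue were counted in the same comparison, where 20.1% of all genes were called higher in CKO and 27.1% in flox. Of 10 fibroblast markers, 9 were tested, of which 6 were called higher in NEC in CKO tissue and 4 in flox tissue, with none lower. They summed to 103.3 to 147.8 FPKM in CKO NEC and 133.8 to 196.5 in flox NEC, against 38.8 to 67.9 in CKO control and 69.8 to 99.5 in flox control, with none at 0 in all libraries. Of 10 smooth muscle markers, 3 were called higher in each genotype, and 1 was called lower in flox. They summed to 606.8 to 2353 FPKM in CKO NEC and 2087 to 3306 in flox NEC, against 221.0 to 658.1 in CKO control and 754.8 to 961.3 in flox control, so the CKO ranges overlap and the flox ranges do not. Among 10 endothelial markers, 7 were called higher in CKO and 6 in flox, and of 11 epithelial markers 1 was called higher and 4 lower in CKO, and 2 higher and 4 lower in flox. Of 8 macrophage and monocyte markers tested, 1 was called higher and 3 lower in CKO, and 2 higher and 3 lower in flox. Of 6 mesothelial markers tested, 1 was called higher in each genotype. The part of cell makeup in the members' differences was not tested. The level of all genes also moved with gene length in these comparisons: the 3669 longest genes tested (6045 bases or more) had a median NEC difference of 0.16 in CKO and 0.35 in flox. Timp3 (8144 bases) is among them. Mmp14 (5960) and Timp2 (3896) fall among the 3668 genes of 3676 to 6044 bases, with medians of -0.00090 in CKO and 0.068 in flox. Mmp9 (3539) and Mmp2 (3371) fall among the 3669 genes of 1920 to 3675 bases, with medians of -0.14 and -0.18. The part of gene length in the members' differences was not tested.

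In uninjured tissue the knockout was set against flox, and Timp3 and Mmp15 stood higher in CKO while Timp2 and Mmp14 stood lower, with no member past the threshold after adjustment. Timp3 had the largest difference. It had 12.1, 11.5 and 9.90 FPKM in CKO control, against 2.26, 4.53 and 6.53 in flox control. Every CKO library was above every flox library, with a gap between them. The difference on the scale of log2(deposited FPKM + 1) was 1.24 ± 0.29 (limma, unadjusted p = 0.00341, adjusted p = 0.0645). It passed the threshold without flox control library 3 (1.52, adjusted p = 0.0428) and with tests limited to genes averaging at least 5 FPKM (adjusted p = 0.0428).

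Mmp15, a membrane-type metalloproteinase related to Mmp14, had 23.3, 25.9 and 36.7 FPKM in CKO control, against 14.4, 19.6 and 22.2 in flox control, with no overlap. The difference was 0.58 ± 0.22 (limma, adjusted p = 0.136). Mmp14 went the other way, with 9.24, 6.61 and 6.41 FPKM in CKO control against 11.6, 15.4 and 8.85 in flox control. Only the CKO library at 9.24 lay above the lowest flox library. That difference was -0.61 ± 0.22 (limma, adjusted p = 0.126). The ratio of Mmp15 to Mmp14 was 2.52, 3.92 and 5.73 in CKO control, against 1.24, 1.27 and 2.50 in flox control, so the groups met without crossing. As the 2 genes differed in opposite directions in these libraries, the ratio is not a further result.

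Timp2 had 14.7, 5.61 and 12.1 FPKM in CKO control, against 15.2, 21.02 and 17.4 in flox control, a difference of -0.76 ± 0.32 (limma, adjusted p = 0.166) without overlap. Timp3 and Timp2 had differences of opposite sign without overlap, neither of them called. With Timp1 a small part of the sum, the share of Timp3 among the inhibitors therefore had to separate the uninjured genotypes. It is not a further result. Timp3 made up 43.0%, 65.8% and 41.3% of the summed FPKM of the 3 inhibitors in CKO control, against 12.1%, 16.0% and 24.7% in flox control. In NEC tissue that share was 19.7%, 26.3% and 32.9% in CKO, against 23.8%, 25.8% and 29.2% in flox, where the groups overlap. The sum itself was 28.2, 17.5 and 23.96 FPKM in CKO control, against 18.7, 28.3 and 26.5 in flox control. The uninjured genotypes thus overlapped in the total and not in the share.

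**Figure D3:**
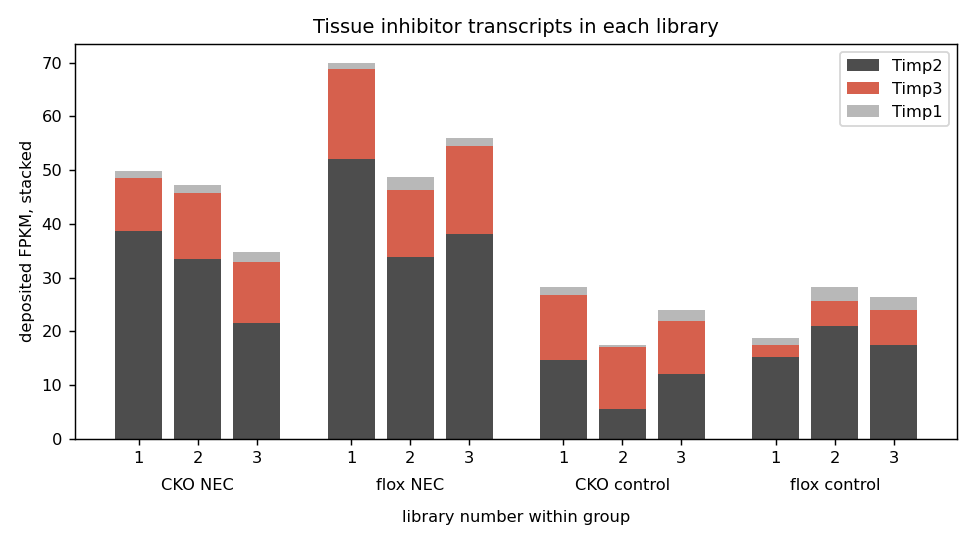
Stacked deposited FPKM (vertical axis, linear from 0) of Timp2, Timp3 and Timp1 in each library, by group and library number (horizontal axis). Timp3 makes up 41.3% to 65.8% of the bar in CKO control and 12.1% to 24.7% in flox control, while the heights of those bars overlap.

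Of the 9 members tested in uninjured tissue, 0 were called by limma, beside 0.00752% of the 13300 genes tested (1 gene). That background is unstable, with 760 genes called among those averaging at least 5 FPKM, 360 by limma-voom and 830 without flox control library 3. At an unadjusted p under 0.05 there were 4 members (Timp2, Timp3, Mmp14 and Mmp15), beside 28.9% of all genes, and the limma-voom test called 0 members. Every CKO library was above every flox library for 2 members and below for 1, beside 21.8% and 12.7% of all genes, so such separation was common in this comparison. The median difference was -0.14 over the members and 0.044 over all genes. Timp1, Mmp2, Mmp9, Mmp10 and Mmp13 had differences of -0.52, -0.34, 0.20, -0.14 and -0.092, with adjusted p from 0.322 to 0.876 (limma).

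Other measures separated the same libraries. Fibroblast markers were below flox in 7 of 8 tested in uninjured tissue and smooth muscle markers in 10 of 10, and their summed FPKM ranges given above did not overlap between the genotypes. Endothelial markers were below flox in 7 of 9, mesothelial in 6 of 6, macrophage and monocyte in 5 of 6, Paneth in 2 of 3 and neutrophil in 1 of 2, while epithelial markers were above it in 9 of 11. None in any of these lists was called (limma, adjusted p). Timp2 and Mmp14 stood lower along with these markers, and Timp3 stood higher. By length, the 3325 longest genes (6045 bases or more) had a median CKO less flox difference of 0.16 in uninjured tissue, with 68.4% of genes higher in CKO, and the 3327 shortest (2066 or fewer) had -0.13, with 37.5% higher. Timp3 is 8144 bases long and its difference was 1.24. Mmp14, at 5960 bases, and Mmp15, at 5397, both fall among the 3320 genes of 3739 to 6044 bases, whose median was 0.094, and their differences were of opposite sign. The mitochondrial share of reads, given above, also differed between these groups without overlap. The part of marker content, gene length and mitochondrial reads in the result was not tested.

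In NEC tissue 7 of the 8 members tested stood below flox in CKO and Mmp15 above, none of them past the threshold. Mmp9 had 5.92, 9.38 and 8.06 FPKM in CKO NEC, against 12.1, 10.6 and 12.2 in flox NEC, and every CKO library was the lower. The difference was -0.54 ± 0.16 (limma, unadjusted p = 0.0107, adjusted p = 0.840). Timp3 had 9.86, 12.4 and 11.4 FPKM in CKO NEC, against 16.6, 12.5 and 16.4 in flox NEC. The highest CKO library lay just below the lowest flox library, and the difference was -0.40 ± 0.14 (adjusted p = 0.840).

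Mmp10 had 2.55, 1.55 and 2.05 FPKM in CKO NEC, against 3.65, 2.45 and 3.53 in flox NEC, with 1 CKO library above the lowest of flox and a difference of -0.47 ± 0.18 (limma, adjusted p = 0.840). Mmp13 was not tested, as its FPKM was under 1 in all 6 libraries. Timp1, Timp2, Mmp2, Mmp14 and Mmp15 had differences of -0.079, -0.41, -0.23, -0.12 and 0.13, with adjusted p between 0.840 and 0.931. Their libraries overlapped between the genotypes.

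The limma test called 0 of 13673 genes (0.0%) in NEC tissue, and the limma-voom test also called 0. At an unadjusted p under 0.05 there were 599 genes (4.38%), among them 3 members (Timp3, Mmp9 and Mmp10). Timp3, Mmp9 and the untested Mmp13 lay with every CKO library below every flox library, beside 6.14% of all genes tested, and 0 members lay above, beside 4.83%. The median over the members tested was -0.32, beside 0.011 over all genes. The fibroblast markers stood below flox in 9 of 9 tested and the smooth muscle markers in 10 of 10. So did 8 of 8 macrophage and monocyte markers, 9 of 9 Paneth, 9 of 10 endothelial, 5 of 6 mesothelial and 1 of 2 neutrophil markers, and 3 of 11 epithelial markers, with 0 called in these lists. The 3416 longest genes (6249 bases or more), Timp3 among them, had a median of -0.072, with 29.9% higher in CKO. The part of marker content and length in the members' values was not tested.

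**Figure D4:**
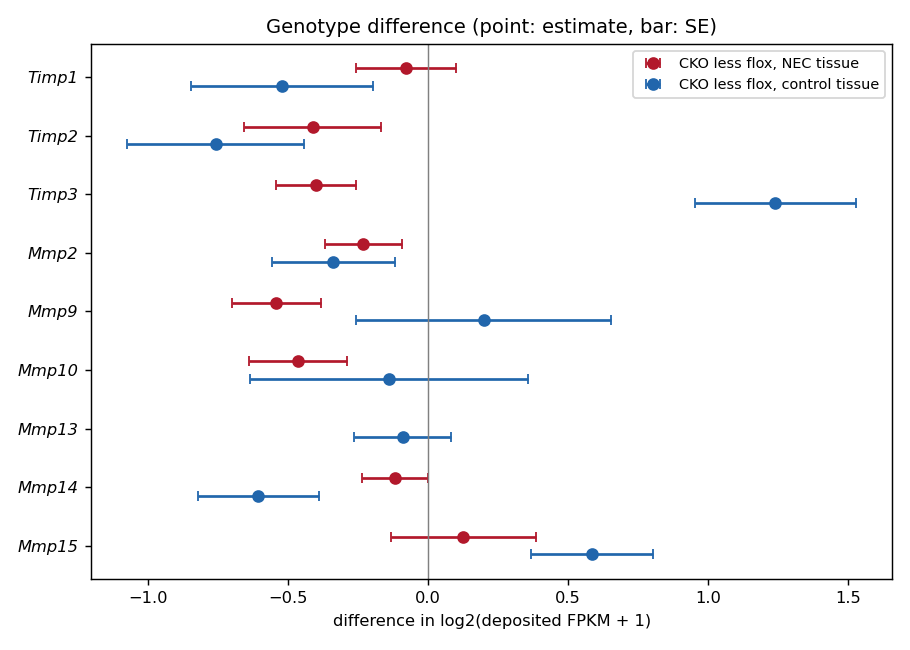
Difference CKO less flox in log2(deposited FPKM + 1) (horizontal axis) for the members (rows) in NEC and in control tissue, with the estimate as a point and 1 SE as a bar; Mmp13 was not tested in NEC. Timp3 lies at -0.40 in NEC tissue and at 1.24 in control tissue, and no adjusted p was under 0.05.

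Timp3 was the only member called in the test of whether the genotype difference was the same in NEC and in control tissue. Its CKO less flox value in NEC, less that in control, was -1.64 ± 0.35 on the log2 scale (limma over the 12 libraries, adjusted p = 0.0488), and 1.01% of the 14808 genes tested were called in this direction (1.22% in either). Put the other way, NEC against control gave -0.13 ± 0.25 for Timp3 in CKO tissue (adjusted p = 0.697) and 1.501 ± 0.25 in flox tissue (adjusted p = 0.000438), from the same libraries. The 3 groups other than flox control stood between 9.86 and 16.6 FPKM, and flox control between 2.26 and 6.53. Flox control also stood apart in its mitochondrial share of reads, 11.1 to 14.3%, against 3.47 to 6.76% in the other 3 groups, and the part of this in the Timp3 value was not tested. The call is close to its threshold. It was lost with a pseudocount of 0.1 (-1.86, adjusted p = 0.0597), with no filter (0.101), with equal library medians (0.0614), and when any 1 of 10 of the 12 libraries was left out (adjusted p = 0.0688 to 0.126). It held without CKO control library 3 (0.0488) or flox control library 3 (0.0293), among genes averaging at least 5 FPKM (0.0318) and in the limma-voom test (-1.88, 0.0419). The sign was negative in each of these.

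No other member was called in this test. Mmp14 had an interaction of 0.49 ± 0.26, Mmp9 -0.74 ± 0.53, Mmp15 -0.46 ± 0.37 and Timp1 0.44 ± 0.39, and the adjusted p of the members other than Timp3 ran from 0.314 to 0.866 (limma). By length, the 3702 longest genes (6035 bases or more here) had a median interaction of -0.20, with 27.9% above 0, and Timp3 is among them. The part of length in the Timp3 value was not tested.

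Timp1 and Mmp10, both known as genes induced in injured bowel, passed none of the tests. Timp1 had 1.47, 1.36 and 1.83 FPKM in CKO NEC, 1.24, 2.34 and 1.61 in flox NEC, 1.43, 0.390 and 1.96 in CKO control and 1.26, 2.74 and 2.50 in flox control. Mmp10 had 1.86, 0.886 and 4.05 FPKM in CKO control and 1.42, 1.30 and 5.55 in flox control, so library 3 of each uninjured group stood above its companions. The sign of the Mmp10 difference turned in uninjured tissue without CKO control library 2 (0.20) or flox control library 3 (0.35), which the value of -0.14 therefore rests on. Among the listed inducers levels ranged widely. Stat3 averaged 15.4 to 25.1 FPKM over the 4 groups and Fosl2 9.75 to 16.2, while the cytokine Il1b averaged 0.215 ± 0.195 FPKM in CKO NEC, 0.173 ± 0.0837 in flox NEC, 0.0350 ± 0.0607 in CKO control and 0.141 ± 0.124 in flox control, and Tnf was at most 0.592 FPKM in any library.

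Among the 17 other metalloproteinase genes and Timp4, 5 were tested between NEC and control, and Mmp7 and Mmp28 rose in both genotypes. Mmp7 (matrilysin), the protease of Paneth cells that processes mouse alpha-defensins, had 6.34, 22.3 and 7.998 FPKM in CKO NEC, against 0.813, 0.454 and 0.848 in CKO control. It had 17.5, 19.6 and 20.3 FPKM in flox NEC, against 0.186, 1.27 and 1.43 in flox control. The NEC groups lay entirely above control, and the rise was 2.65 ± 0.38 in CKO (limma, adjusted p = 0.000381) and 3.30 ± 0.38 in flox (adjusted p = 4.64e-05). Most Paneth markers stood higher along with it. Of the 10, Mmp7 itself among them, 9 were tested. In CKO 8 stood higher and 1 lower, with 4 called higher, beside 20.1% of all genes. In flox 9 stood higher, with 7 called, beside 27.1%. The summed FPKM of the Paneth markers was 140.0 to 301.9 in CKO NEC and 357.3 to 395.2 in flox NEC, against 10.2 to 70.4 in CKO control and 13.0 to 98.9 in flox control.

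Mmp28 (epilysin) averaged 2.14 ± 1.51 FPKM in CKO NEC against 0.395 ± 0.107 in CKO control, and 2.26 ± 0.275 in flox NEC against 0.532 ± 0.229 in flox control. The rise was 0.99 ± 0.26 in CKO (limma, adjusted p = 0.0105) and 1.00 ± 0.26 in flox (adjusted p = 0.00723). Mmp11, Mmp17 and Mmp23 were tested and not called (adjusted p = 0.116 to 0.808), and Mmp19 averaged 1.11 ± 0.171 FPKM in flox NEC and was below the filter. Mmp1a and Mmp1b were listed at 0 in all 12 libraries. Mmp8, the neutrophil collagenase, averaged at most 0.0382 FPKM in any group, and Mmp3 at most 0.0387. None of this list was called between the genotypes in either tissue (limma).

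Most transcripts of the listed matrix proteins that these enzymes cut rose in NEC, and no list of pathway genes held a call between genotypes. Of 18 matrix substrates, 17 were tested, and 16 were called higher in NEC in CKO tissue and 15 in flox tissue. Of all genes tested, 20.1% were called higher in CKO and 27.1% in flox. None of the list was called lower, and the medians were 1.63 and 1.43. Fn1 (fibronectin) averaged 29.3 ± 10.5 FPKM in CKO NEC against 4.62 ± 1.83 in CKO control, and 49.7 ± 6.93 in flox NEC against 6.41 ± 1.55 in flox control. It rose by 2.28 ± 0.30 in CKO (limma, adjusted p = 0.000261) and by 2.64 ± 0.30 in flox (adjusted p = 4.37e-05). Fbn1, the microfibril protein fibrillin-1, rose by 2.01 in CKO and 2.40 in flox, and the basement membrane genes Lamc1 and Nid1 by 0.96 and 1.10 in CKO and by 1.72 and 1.88 in flox.

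Of 16 ADAM and ADAMTS genes, 11 were tested, and 6 were called higher and 1 lower in CKO tissue, 8 higher and 2 lower in flox tissue. The median difference was 0.53 in CKO and 0.87 in flox, and for this and the next lists the shares of all genes called, 20.1% higher and 22.9% lower in CKO and 27.1% and 26.4% in flox, are the background. Adamts1, an aggrecan-cleaving protease, averaged 6.97 ± 2.20 FPKM in CKO NEC against 1.52 ± 0.773 in CKO control, and 11.7 ± 1.90 in flox NEC against 1.75 ± 0.256 in flox control. Its rise was 1.55 ± 0.24 in CKO (limma, adjusted p = 0.000640) and 2.07 ± 0.24 in flox (adjusted p = 5.33e-05). Adamts9 rose by 0.64 in CKO and 0.90 in flox, and Adam15 fell by 0.42 in CKO and by 0.70 in flox. Adam10, a sheddase that Timp3 inhibits, followed an order like that of Timp3, with 30.2 ± 2.31 FPKM in CKO NEC, 32.4 ± 2.44 in flox NEC, 25.9 ± 1.66 in CKO control and 15.05 ± 2.69 in flox control. The Adam10 interaction was -0.85 ± 0.18 (limma, adjusted p = 0.0505) and was not called. Flox control was also the lowest group for Lrp1 (13.3 FPKM, against 17.8 to 23.3) and Ets2 (18.9, against 26.2 to 42.9). The order was thus not particular to Timp3 and Adam10.

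Among 14 activators and plasminogen genes, 8 were tested, with 4 called higher in CKO tissue, and 4 higher and 1 lower in flox tissue, and medians of 0.51 and 0.48. Klk1 (tissue kallikrein) rose by 2.40 ± 0.42 in CKO (limma, adjusted p = 0.00114) and 2.60 ± 0.42 in flox (0.000393). Plau, the urokinase-type plasminogen activator, had a CKO difference of -0.53 ± 0.22 (adjusted p = 0.0726) and fell by 0.79 ± 0.22 in flox (0.0107). Furin, which cleaves the Mmp14 precursor, had a difference of 0.039 in CKO (adjusted p = 0.845) and rose by 0.48 in flox (0.0154). Pcsk6, a convertase related to furin, rose by 0.54 in CKO (0.0403) and 0.98 in flox (0.00135).

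Of 13 other inhibitors and regulators, 11 were tested, with 3 called higher and 1 lower in CKO and 5 higher and 1 lower in flox, and medians of 0.58 and 0.61. Cd44, a hyaluronan receptor that docks Mmp9 and Mmp14 at the cell surface, rose by 0.92 ± 0.19 in CKO (limma, adjusted p = 0.00327) and 1.24 ± 0.19 in flox (0.000323). Thbs2, a matrix protein that aids the uptake of Mmp2, rose by 1.80 in CKO (0.00102) and 1.44 in flox (0.00230). Thbs1 and the uptake receptor Lrp1, which clears Timp3 among other ligands, had differences of 0.45 and 0.093 in CKO (0.132 and 0.534) and rose in flox by 1.35 and 0.61 (0.000531 and 0.000937).

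Of 24 inducers, 14 were tested, with 2 called higher and 3 lower in CKO and 5 higher and 4 lower in flox, and medians of -0.16 and 0.34, so the counts are near the background. Etv4, an Ets-family factor, averaged 2.93 ± 0.520 FPKM in CKO NEC against 0.212 ± 0.119 in CKO control, and 3.28 ± 0.815 in flox NEC against 0.374 ± 0.220 in flox control, a rise of 1.61 and of 1.53 (limma, adjusted p = 0.000104 and 4.93e-05). Ets2 rose by 0.38 in CKO (0.0342) and 0.99 in flox (0.000111). Jun, a subunit of AP-1, averaged 29.6 ± 9.06 FPKM in CKO NEC against 62.1 ± 5.48 in CKO control, and 30.0 ± 9.64 in flox NEC against 51.8 ± 4.73 in flox control. It fell by 1.22 ± 0.24 in CKO (adjusted p = 0.00212) and by 0.96 ± 0.24 in flox (0.00553). Other AP-1 subunits differed in direction. Fos averaged 10.6 ± 3.03 FPKM in CKO NEC against 12.02 ± 9.27 in CKO control, and 17.9 ± 3.52 in flox NEC against 6.70 ± 0.953 in flox control. Its difference was -0.11 in CKO (limma, adjusted p = 0.834), and it rose by 1.14 in flox (0.0236). Junb had a difference of -0.52 in CKO (0.0641) and fell by 0.75 in flox (0.0105), and Fosl2 had differences of -0.14 in CKO (0.668) and 0.57 in flox (0.0722). The cytokine Lif fell by 0.63 in CKO (0.0159) and by 0.90 in flox (0.00147).

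The gene nearest to each of 6 members in profile was sought among 12609 genes, by the root mean square distance between log2 values over the 12 libraries, each centred on its own mean. Mmp14 had the closest neighbours, Pcdh18 (a distance of 0.11), Scara3 (0.11) and Ifitm2 (0.12), where Mmp14 itself varied by 0.43 about its mean. Pcdh18 averaged 2.60 FPKM in CKO NEC, 2.83 in flox NEC, 1.03 in CKO control and 1.82 in flox control. For Mmp15 they were Liph (0.15), Rnf128 (0.16) and App (0.16), and for Mmp13 Slx4 (0.13), Dmtf1 (0.13) and Coq9 (0.13). For Mmp10 they were Pde9a (0.18), Higd1a (0.26) and Slc30a10 (0.26), and for Timp1 Nxph3, Tubg2 and Phf2os1 (0.24 each). About their own means Mmp15 varied by 0.38, Mmp13 by 0.27, Mmp10 by 0.51 and Timp1 by 0.37. The distances for Timp1, Mmp13 and Mmp15, and those of Higd1a and Slc30a10 from Mmp10, are thus not small beside the members' own variation. Timp3 was added after its values had been seen, with Glg1 (0.20), Kctd10 (0.21) and Atrnl1 (0.24) beside its own 0.64. Glg1 averaged 27.7 FPKM in CKO NEC, 30.2 in flox NEC, 22.1 in CKO control and 10.2 in flox control. All these distances share the same 12 libraries and describe likeness in level only.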

How the data were processed

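The authors deposited FPKM in 2 tables with gene lengths, 1 for each condition; per the labels' protocols, RNA was isolated with Trizol and a NEBNext Ultra II RNA kit was used for the libraries. The sources used here name no aligner, counter or build, and 98.3% of matched genes had the coordinates of GENCODE M21. FPKM times length fell on whole multiples of 1 step per library for 100.0% of values (tolerance 0.05), which gave whole reads.

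Genotypes were compared with limma 3.58.1 (R 4.3.3, mean-variance trend) on log2(deposited FPKM + 1), among genes with FPKM of at least 1 in at least 3 libraries fitted, with Benjamini-Hochberg adjustment over all genes and a threshold of 0.05. The interaction used all 12 libraries. NEC was compared with control on FPKM rescaled by median-of-ratios factors of the recovered reads. Fold changes on this scale understate those of low genes. The limma procedure was also run on simulated data. Those held no shift with gene length such as the one seen here, so that run does not bear on the calls. Alternatives were another pseudocount (0.1), no filter, a mean of at least 5 FPKM, equal library medians, other scalings, a replicate block, limma-voom on reads and leaving out each library.

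The members, the 14 gene lists and the tests were chosen with earlier results of these data known. Named pathway genes are the up to 4 of each list with the smallest p in NEC against control in flox. Other metalloproteinases were named where a group mean was at least 1 FPKM. Mmp1a, Mmp1b, Mmp3, Mmp8, Il1b, Tnf, Stat3, Fos, Fosl2, Junb and the neutrophil and epithelial markers were named after their values were seen. Promoter sequences are from RefSeq (GRCm38.p6). Python 3.11.15, numpy 2.4.6, pandas 2.3.3 and matplotlib 3.10.9 were used.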

Additional observations from a re-analysis of the deposited data

Results flagged for a closer look

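The Timp3 genotype difference was called unlike in the 2 conditions by a test of the difference itself, close to the threshold. CKO less flox on the log2 scale was -0.40 in NEC tissue and 1.24 in control tissue, and the interaction was -1.64 (limma, adjusted p = 0.0488). The call was lost when any 1 of 10 of the 12 libraries was left out (limma, adjusted p up to 0.126). It was lost also with a pseudocount of 0.1, no filter, equal library medians or the replicate block. It held among genes averaging at least 5 FPKM and by limma-voom. Timp3 stood at 9.86 to 12.4 FPKM in CKO NEC, 12.5 to 16.6 in flox NEC, 9.90 to 12.1 in CKO control and 2.26 to 6.53 in flox control. Flox control also had the highest mitochondrial share of reads, 11.1 to 14.3%, against 3.47 to 6.76% in the other 3 groups. No cause was tested.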

How the results depend on the processing

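Members called between genotypes in uninjured tissue numbered 0, and 1 among genes averaging at least 5 FPKM (Timp3) or with the replicate block (Mmp15, adjusted p = 0.0484). All genes called there numbered 1, 0 with no filter, 760 at 5 FPKM, 903 with the block and 360 by limma-voom, and 0 to 830 with a library left out (830 without flox control library 3, and 0 to 1 members throughout). In NEC tissue the number was 0, or 0 to 1 with a library left out. The interaction called 181 genes, 41 with no filter, 417 at 5 FPKM, 24 with equal library medians (29.2% of them higher, against 17.1%) and 0 to 646 with a library left out (307 without CKO control library 3, 646 without flox control library 3, at most 28 otherwise, and 0 to 1 members throughout). Of the members it called Timp3, and 0 with a pseudocount of 0.1, no filter, equal medians or the replicate block (adjusted p = 0.0558). NEC against control called 6306 genes in CKO and 7854 in flox, and 3904 and 4779 at 5 FPKM, with 4879 to 6509 and 6735 to 7993 when a library was left out (3 to 4 and 2 to 5 members). On deposited values 60.6% of calls in CKO and 61.2% in flox were higher, against 46.8% and 50.6%.

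The sign turned for Mmp15 in flox NEC against control with upper-quartile factors (-0.031), and in CKO for Timp3 (0.0030) and Mmp10 (0.0076) on deposited values. With a library left out, signs also turned between genotypes in NEC for Timp1 (-0.21 to 0.076) and Mmp15 (-0.078 to 0.45), and in control for Mmp9 (-0.26 to 0.57) and Mmp10 (-0.51 to 0.35). They turned in the interaction for Timp2 (-0.026 to 0.60), Mmp2 (-0.021 to 0.36) and Mmp10 (-0.82 to 0.048). In NEC against control they turned for Timp1 (-0.16 to 0.39) and Mmp10 (-0.43 to 0.29) in CKO, and for Mmp10 (-0.048 to 0.71) and Mmp15 (-0.15 to 0.14) in flox. None of these was a call. The cause of each change was not tested.

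The replicate numbers were not taken as pairs: deviations of same-numbered libraries correlated from -0.122 to 0.358. Over all members and comparisons, direction and side of the threshold were kept in 255 of 267 values recomputed with all libraries and 378 of 414 with one left out. Depth limits Timp1, Mmp10 and Mmp13 most, at 5 to 138 reads per library.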
